A study of Homo sapiens with 48 samples.

Results

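The genes described here are 40 genes known to be regulated by androgen, chosen by symbol from the 61815 genes counted in cultures of 22Rv1 and its derivatives, with the kallikreins and TMPRSS2 left out. Earlier results of these data were known when these and the other gene lists were chosen. Of the 40, 39 passed the filter on low counts and were tested, and OPRK1, the kappa opioid receptor gene, did not, with at most 5 counts in any library. RNA was sequenced from 48 cultures in 16 groups of 3 biological replicates. 22Rv1 is a castration-resistant prostate cancer cell line. The question behind the design is how loss of androgen and inhibition of the Mediator kinases CDK8 and CDK19, which sit on the Mediator complex and modulate transcription by RNA polymerase II, change gene expression.

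The parental line is named Rv1-WT, and Rv1-Luc was derived from it with a lentivirus encoding firefly luciferase. The other 4 lines come from 22Rv1 cells in which both CDK8 and CDK19 were knocked out and a kinase was then put back by lentivirus. dKO-8 and dKO-19 express active CDK8 or CDK19, whereas dKO-8M and dKO-19M express the same kinase with the substitution D173A, which inactivates it, so that the knockout is shared by all 4 lines. dKO-8 and dKO-8M were made from knockout cells that already held an empty vector, which dKO-19 and dKO-19M do not. Cells of Rv1-WT and of Rv1-Luc were grown in fetal bovine serum (FBS) or in charcoal-stripped serum (CSS), from which androgens and other small lipophilic molecules are removed, the latter after a passage in CSS, and the dKO lines in FBS. Each culture received 500 nM SNX631, which inhibits CDK8 and CDK19, or 0.1% DMSO (vehicle) for 72 hours.

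Androgens are steroid hormones, chiefly testosterone and dihydrotestosterone, that act on cells by changing the transcription of their target genes. In luminal prostate epithelium these targets encode secreted proteins, transporters, lipid enzymes and a set of feedback regulators, of which FKBP5 and PMEPA1 are examples. Several of them, among them FKBP5, SGK1 and NDRG1, also respond to glucocorticoid or to hypoxia, and much of the hormonal control of such genes comes from enhancers far from the start of the gene.

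The DNA just upstream of the members was examined for a hexamer bound by steroid hormone receptors, AGAACA, or TGTTCT on the other strand. RefSeq (GRCh38.p14) gave 64 windows of the 250 bases before a transcript start for 32 members, and none for OPRK1, ZBTB10, ELL2, ZMIZ1, SORD, NDRG1, TPD52 and PLPP1. The hexamer was present for 5 of the 32 (15.6%), namely PMEPA1, IQGAP2, STK39, LIFR and TSC22D1, against 14.8% of the 27305 genes with a window. Genes differ in their number of windows. Counted by window, the hexamer was in 5 of the 64 member windows, against 12.4% of all 35116. The paired element, AGAACA followed by TGTTCT with 3 bases between them, was in 0 of the 64 member windows and in 1 of all 35116 windows. The sequences of 3 members whose levels carry the results below are shown 5′ to 3′ on the strand of the gene, ending at the base before the start, with the hexamer in capitals: SLC45A3 (chr1:205680510-205680759, minus strand), which holds none, PMEPA1 (chr20:57710578-57710827, minus strand), which holds it at position -229 from the start, and IQGAP2 (chr5:76547159-76547408, plus strand), which holds it at position -55.
SLC45A3: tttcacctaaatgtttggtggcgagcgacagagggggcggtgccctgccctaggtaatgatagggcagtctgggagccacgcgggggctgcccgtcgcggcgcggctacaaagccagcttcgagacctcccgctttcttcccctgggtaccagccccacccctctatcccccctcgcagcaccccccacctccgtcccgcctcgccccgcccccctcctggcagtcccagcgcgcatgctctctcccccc
PMEPA1: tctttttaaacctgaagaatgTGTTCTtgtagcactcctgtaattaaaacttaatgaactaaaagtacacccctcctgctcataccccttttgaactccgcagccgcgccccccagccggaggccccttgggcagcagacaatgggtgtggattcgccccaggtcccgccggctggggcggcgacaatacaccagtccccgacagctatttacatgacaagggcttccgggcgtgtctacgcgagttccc
IQGAP2: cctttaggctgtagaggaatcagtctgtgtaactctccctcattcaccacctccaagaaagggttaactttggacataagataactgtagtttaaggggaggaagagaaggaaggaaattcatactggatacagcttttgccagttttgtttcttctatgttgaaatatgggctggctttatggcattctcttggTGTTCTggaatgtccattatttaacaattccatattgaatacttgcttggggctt
The match is a description of these letters and no measurement of binding was made. For PMEPA1 and IQGAP2 the window with the hexamer is shown, and the windows at their other starts hold none.

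Levels are given in CPM, the counts of a gene relative to the scaled library total (trimmed mean of M values), for replicates 1, 2 and 3 in that order. Library totals ran from 13.2 to 31.5 M counts, those of Rv1-WT (13.2 to 18.2 M) lay below those of every other line, and dKO-19M vehicle replicate 1 stood apart from its 2 replicates (chi-square over degrees of freedom 17.7 and 17.1, at most 9.71 in any other replicate pair). CDK8 RNA was at 68.7 CPM in dKO-8 and 123 CPM in dKO-8M against 26.8 CPM in Rv1-WT, and CDK19 RNA at 510 CPM in dKO-19 and 332 CPM in dKO-19M against 149 CPM. RNA and protein differ here, since by Western blot the paper reports less CDK8 in dKO-8 than in parental cells. The knockout itself cannot be read from these counts, since CDK8 RNA was at 27.7 CPM in dKO-19. The 9 luminal epithelial markers summed to between 2960 and 6590 CPM and the 4 basal markers to between 0.0669 and 3.78 CPM. In bulk cultures, fewer cells that make a transcript and less transcript per cell cannot be told apart.

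By edgeR's quasi-likelihood test, a change of more than 1.5-fold with a false discovery rate (FDR) below 0.01 over the 20009 genes tested was called, and log2 fold changes (log2FC) are given with their standard error. Of the 39 members, 26 were called in at least 1 of the 15 comparisons between groups, as were 35.5% of all genes, and 13 in none, as the map of log2FC shows. In the 15 comparisons the libraries of the 2 groups did not overlap for any member called. This does not set those members apart, since some not called, such as ELL2 for CSS in Rv1-WT under vehicle, did not overlap either. The share over all genes is not given. CSS and SNX631 comparisons of the same line share libraries, so their values are set side by side and not tested against each other except by the interaction terms given.

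**Figure D1:**
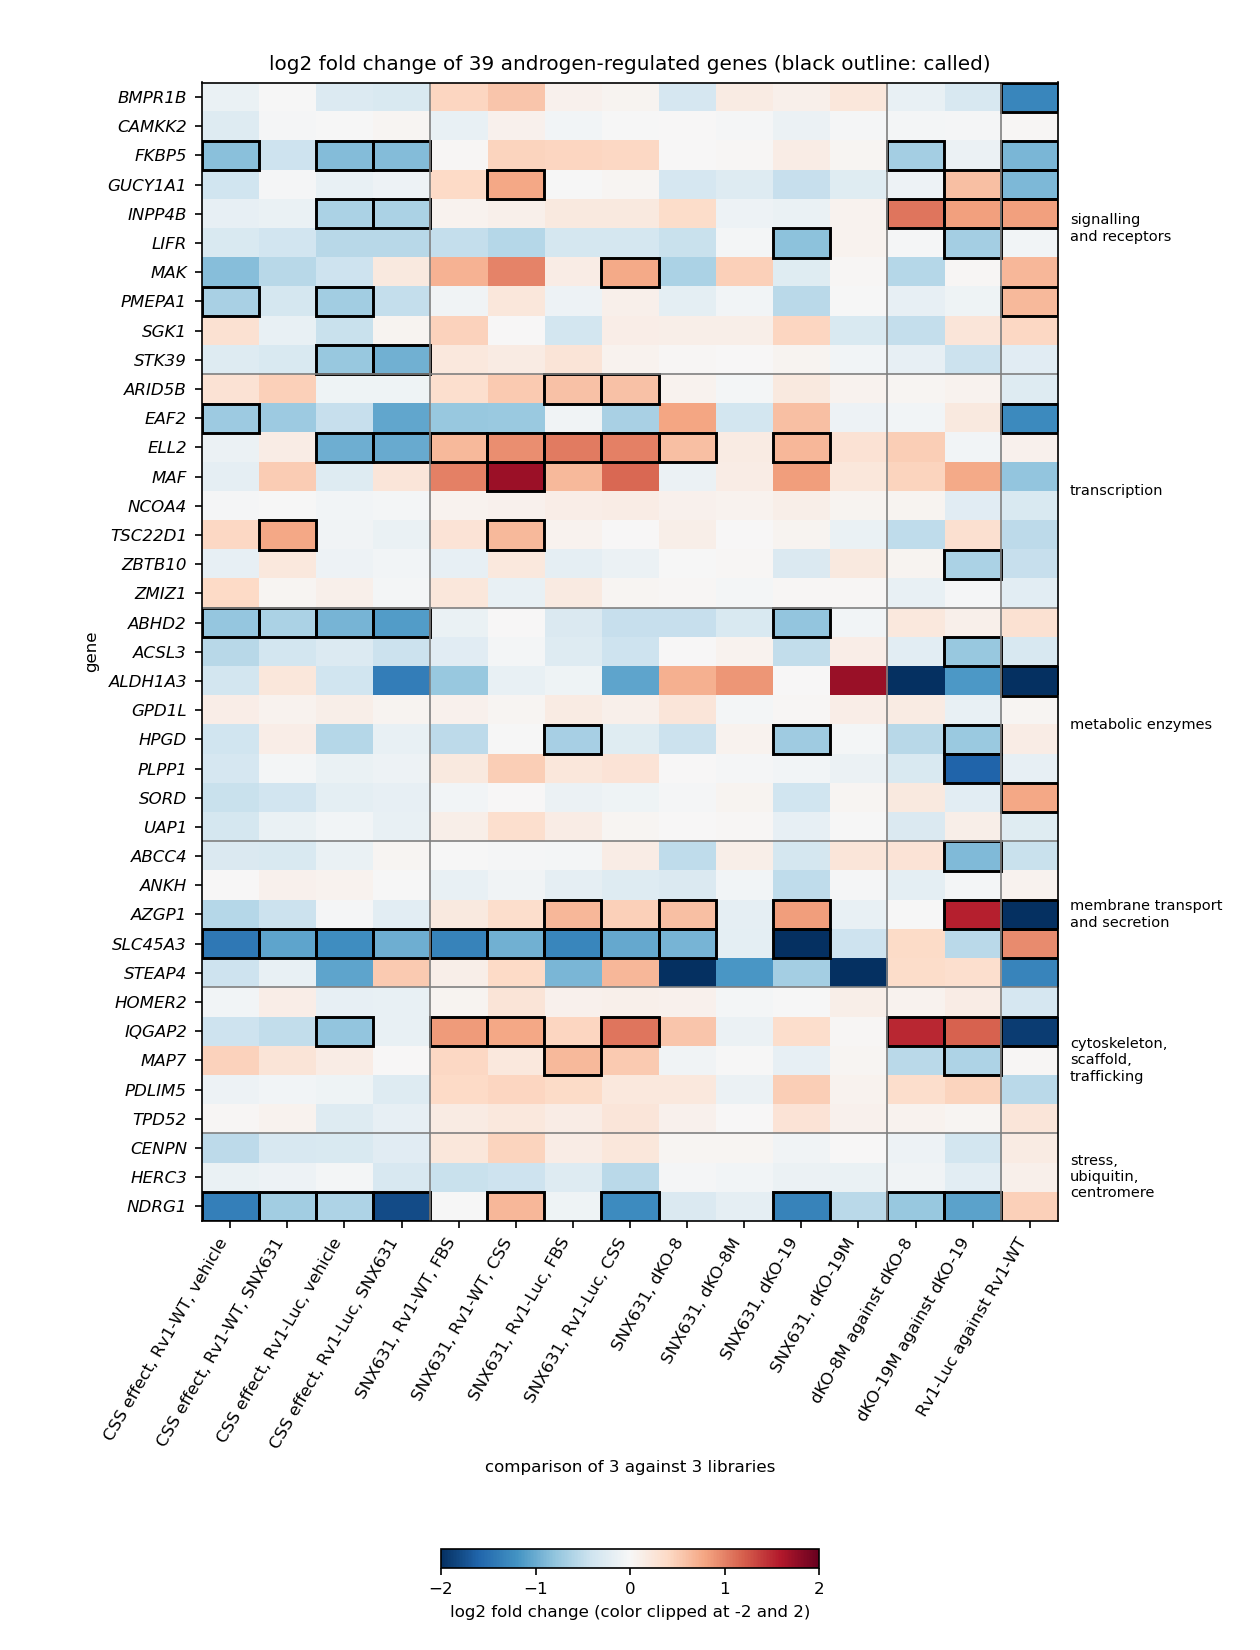
log2 fold change (color, clipped at -2 and 2) of the 39 tested members (y axis, grouped by role) in the 15 comparisons of 3 against 3 libraries (x axis), with called members outlined in black. SLC45A3 is blue and outlined in all 4 CSS comparisons and in the 6 SNX631 comparisons with an active kinase, ELL2 is red in the same 6, and the columns of dKO-8M and dKO-19M have no outline.

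Growth in CSS lowered part of the set and called a single member higher. FKBP5, SLC45A3, PMEPA1, ABHD2 and NDRG1 were lower in CSS in both lines under vehicle, and 21 of the 39 members had a negative log2FC in all 4 CSS comparisons, as did 16.2% of all genes. In Rv1-WT under vehicle 6 members were called lower, where 4.78% of all genes were, and 0 higher, where 6.09% were, and the median log2FC of the members was -0.29 against 0.01 over all genes. In Rv1-WT under SNX631 it was 3 lower (2.97% of all genes) and 1 higher (4.86%), with a median of -0.10. Rv1-Luc had 9 members lower under vehicle (0.81% of all genes) and 0 higher (0.68%), with a median of -0.26, and 7 lower under SNX631 (0.92%) and 0 higher (0.595%), with a median of -0.15. Among members with a positive log2FC in the 3 comparisons with 0 called higher, 5, 2 and 0 had an unadjusted p under 0.05 by the same edgeR test, beside 24.8%, 13.8% and 13% of all genes, and DESeq2 called 0 higher in the 3.

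Of the signaling genes, FKBP5, a co-chaperone of HSP90 that acts on steroid receptors, was at 626, 593 and 608 CPM in Rv1-WT in FBS under vehicle and at 339.7, 331 and 347 CPM in CSS. In Rv1-Luc it was at 345, 305 and 316 CPM in FBS and 185, 171 and 176 CPM in CSS. In each line all 3 CSS libraries lay well below all 3 FBS libraries. The log2FC was -0.84 ± 0.044 (edgeR FDR = 7.43e-24) in Rv1-WT and -0.86 ± 0.045 (edgeR FDR = 4.78e-23) in Rv1-Luc, and the difference of the effect between the lines was -0.02 ± 0.062 (edgeR FDR = 0.876). Under SNX631 the levels in FBS and CSS were 647, 598 and 604 CPM and 468, 446 and 470.3 CPM in Rv1-WT, and 420.4, 399.5 and 476 CPM and 239, 232 and 242 CPM in Rv1-Luc. The groups again did not overlap, with a log2FC of -0.42 ± 0.043 (edgeR FDR = 5.81e-12) in Rv1-WT, short of the 1.5-fold limit, and -0.86 ± 0.044 (edgeR FDR = 3.12e-23) in Rv1-Luc.

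PMEPA1, a membrane protein that dampens TGF-beta signaling, was at 590.2, 558 and 583 CPM in Rv1-WT in FBS under vehicle and 374, 359 and 367 CPM in CSS, and at 924, 899.7 and 897 CPM and 588, 536 and 561 CPM in Rv1-Luc. Every CSS library was lower than every FBS library of its line, with a log2FC of -0.65 ± 0.039 (edgeR FDR = 3.12e-21) and -0.69 ± 0.038 (edgeR FDR = 1.05e-21). Under SNX631 PMEPA1 was not called, with a log2FC of -0.35 in Rv1-WT and -0.48 in Rv1-Luc.

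STK39, a kinase that regulates ion cotransporters, was called in Rv1-Luc. There it was at 50.5, 54.2 and 53.2 CPM in FBS and 32.4, 28 and 32.6 CPM in CSS under vehicle, and at 66.1, 63.8 and 59.9 CPM and 33.3, 31.5 and 32.8 CPM under SNX631. The FBS and CSS libraries were far apart under both treatments, with a log2FC of -0.76 ± 0.056 (edgeR FDR = 1.22e-16) and -0.96 ± 0.055 (edgeR FDR = 5.32e-21). In Rv1-WT STK39 was at 62.4, 58.7 and 63.7 CPM in FBS and 52.4, 49.5 and 52.8 CPM in CSS under vehicle, a log2FC of -0.26 that was not called, and the difference of the effect between the lines was -0.51 ± 0.079 (edgeR FDR = 5e-07), short of a call. INPP4B, a phosphatase of membrane inositol lipids, was lower in CSS in Rv1-Luc by a log2FC of -0.63 under vehicle and -0.64 under SNX631. Both INPP4B values are near the 1.5-fold limit and fell short of it under vehicle without FBS replicate 2 (-0.58) or CSS replicate 2 (-0.55), and under SNX631 without FBS replicate 1 (-0.55) or CSS replicate 3 (-0.58).

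Of the transcription genes, ELL2, an elongation factor of RNA polymerase II, was called lower in CSS in Rv1-Luc and not in Rv1-WT. It was at 258, 261 and 259 CPM in FBS and 235, 250.1 and 229.9 CPM in CSS for vehicle-treated Rv1-WT, and at 319, 237 and 267 CPM and 136, 141 and 141 CPM in Rv1-Luc. The CSS libraries were the lower in both lines without overlap, by little in Rv1-WT and by more in Rv1-Luc. The log2FC was -0.12 ± 0.066 (edgeR FDR = 0.133) in Rv1-WT and -0.98 ± 0.066 (edgeR FDR = 6.06e-15) in Rv1-Luc, and the difference between them was -0.86 ± 0.093 (edgeR FDR = 7.97e-10). Under SNX631 ELL2 was at 596, 497 and 596 CPM in FBS and 288, 244 and 308 CPM in CSS in Rv1-Luc, with no overlap and a log2FC of -1.01 ± 0.064 (edgeR FDR = 1.05e-15), which in a fit of the 2 groups alone missed the FDR limit (-1.01, edgeR FDR = 0.0106). EAF2, a partner of the ELL factors, was at 3.88, 2.81 and 2.01 CPM in FBS and 1.78, 1.61 and 1.86 CPM in CSS in Rv1-WT under vehicle. Its log2FC of -0.73 ± 0.23 (edgeR FDR = 0.00754) was not called by DESeq2 (-0.73, adjusted p = 0.0153) and was lost without 5 of the 6 libraries, most so without FBS replicate 1 (-0.45, edgeR FDR = 0.168), which was the highest.

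TSC22D1, a leucine zipper protein of the TGF-beta response, was the 1 member called higher in CSS. In Rv1-WT under SNX631 it was at 149, 139 and 135 CPM in FBS and 230.1, 250.4 and 245 CPM in CSS, with a log2FC of 0.78 ± 0.044 (edgeR FDR = 3.85e-22). All 3 CSS libraries were above the FBS libraries. Under vehicle the same groups were at 115, 118 and 115 CPM and 151, 155 and 155 CPM, a log2FC of 0.41 that was under the limit, and in Rv1-Luc the log2FC was -0.07 under vehicle and -0.13 under SNX631.

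**Figure D2:**
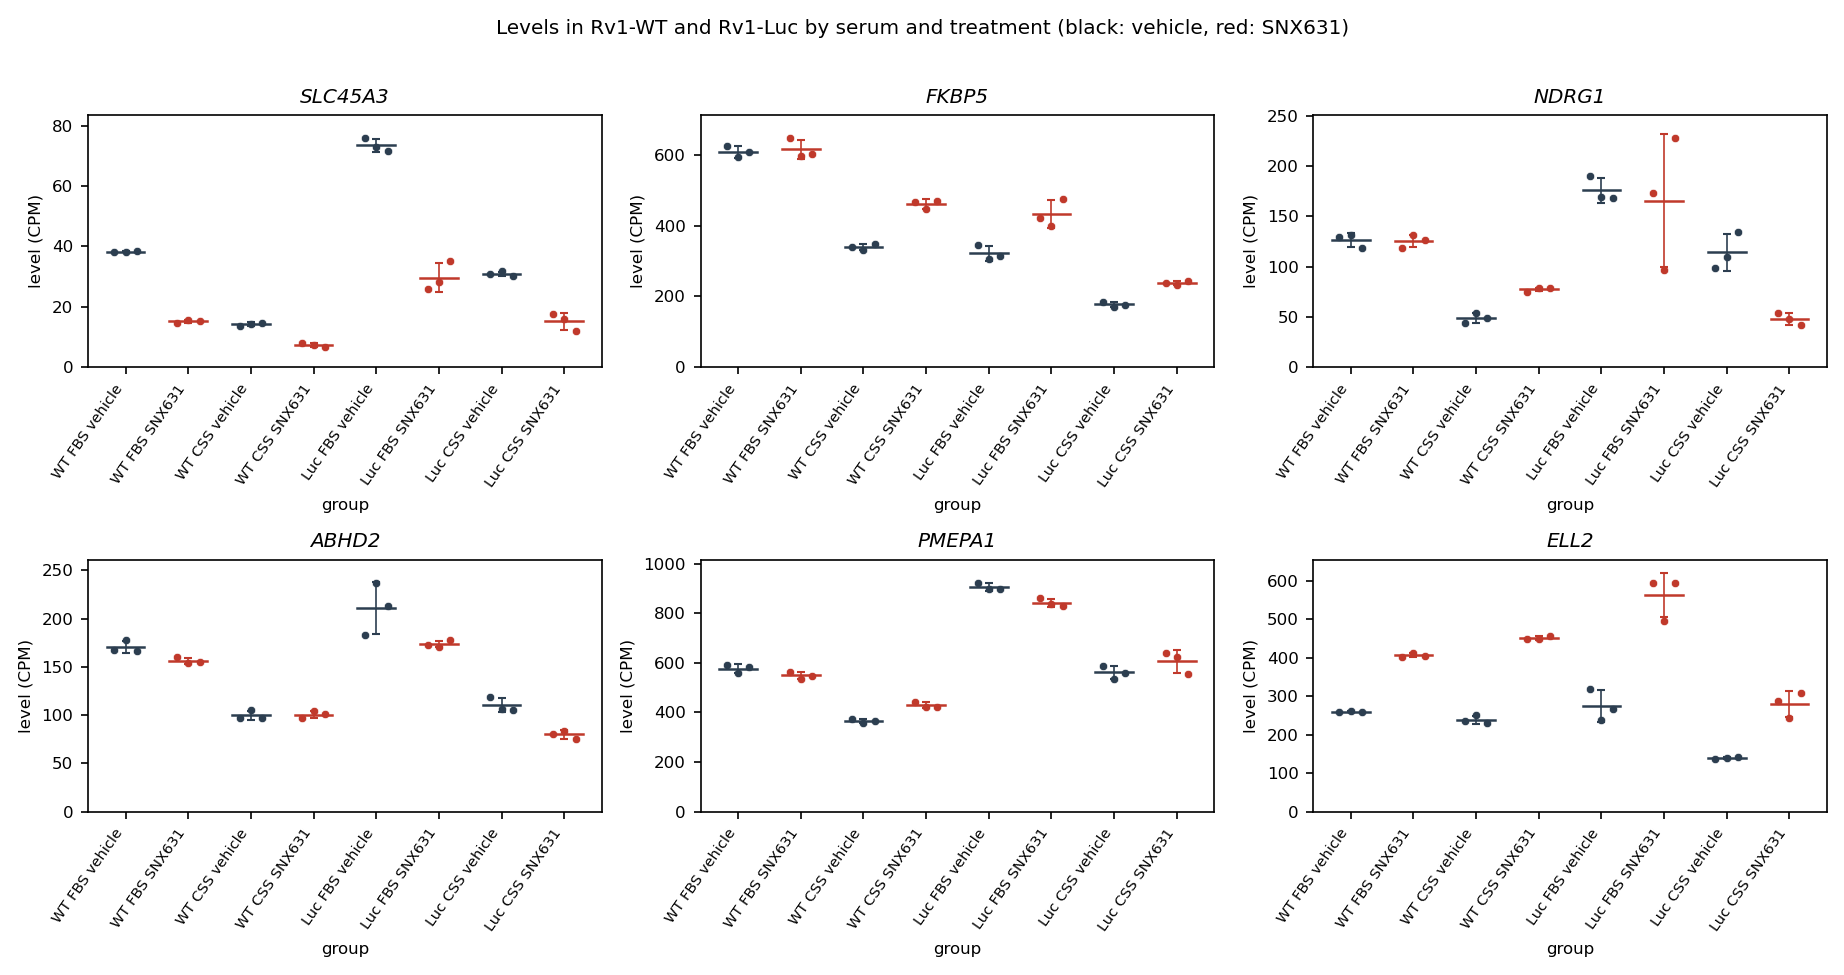
Levels in CPM (y axes, from 0) of SLC45A3, FKBP5, NDRG1, ABHD2, PMEPA1 and ELL2 in the 8 groups of Rv1-WT and Rv1-Luc (x axes), black for vehicle and red for SNX631. Points are the 3 libraries, horizontal lines the mean and bars the SD, and NDRG1 in Rv1-Luc in FBS under SNX631 has the widest spread, from 96.2 to 228 CPM.

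Of the enzymes, ABHD2, a serine hydrolase of membrane lipids, was lower in CSS in all 4 comparisons. Under vehicle it was at 168, 178 and 166 CPM in FBS and 97.3, 105 and 96.9 CPM in CSS in Rv1-WT, and at 184, 238 and 213 CPM and 119, 106 and 106 CPM in Rv1-Luc. Under SNX631 it was at 160.1, 154 and 155 CPM and 96.5, 104 and 101 CPM in Rv1-WT, and 173, 171 and 177 CPM and 80.9, 83.8 and 75.3 CPM in Rv1-Luc. No CSS library reached the lowest FBS library of its line and treatment. The log2FC ran from -0.64 ± 0.075 (edgeR FDR = 3.75e-09) in Rv1-WT under SNX631 to -1.12 ± 0.074 (edgeR FDR = 6.92e-15) in Rv1-Luc under SNX631, with -0.78 and -0.94 under vehicle. The other 7 enzymes were not called in CSS, with a log2FC under vehicle in Rv1-WT of -0.55 for ACSL3, which activates long-chain fatty acids, -0.45 for SORD, sorbitol dehydrogenase, and -0.39 for HPGD, which inactivates prostaglandins.

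Of the transport and secretion genes, SLC45A3 (prostein), a transporter of the prostate epithelium, had the largest drop in CSS under vehicle of all members in both lines. In Rv1-WT under vehicle it was at 38.3, 38 and 38.6 CPM in FBS and 13.5, 14.4 and 14.7 CPM in CSS, and in Rv1-Luc at 75.8, 72.8 and 71.7 CPM and 30.8, 31.7 and 30.2 CPM. Under SNX631 it was at 14.7, 15.6 and 15.4 CPM and 7.98, 7.3 and 6.68 CPM in Rv1-WT, and 25.8, 28.1 and 35 CPM and 17.5, 16 and 12 CPM in Rv1-Luc. In each pair of groups the CSS libraries were the lower, without overlap. The log2FC was -1.43 ± 0.086 (edgeR FDR = 4.48e-21) and -1.06 ± 0.11 (edgeR FDR = 6.31e-12) in Rv1-WT, and -1.25 ± 0.069 (edgeR FDR = 9.07e-22) and -0.97 ± 0.082 (edgeR FDR = 3.32e-14) in Rv1-Luc. The last missed the FDR limit in a fit of its 2 groups alone (-0.98, edgeR FDR = 0.0147). Of the scaffold genes, IQGAP2, which binds actin regulators, was at 2.99, 2.6 and 2.95 CPM in FBS and 1.72, 1.58 and 1.62 CPM in CSS in Rv1-Luc under vehicle, a log2FC of -0.79 ± 0.17 (edgeR FDR = 0.000621) with no overlap.

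NDRG1, a stress protein induced by hypoxia and iron depletion as well as by androgen, was lower in CSS in all 4 comparisons with a size that varied. Under vehicle it was at 129, 131 and 119 CPM in FBS and 44.1, 53.6 and 48.9 CPM in CSS in Rv1-WT, and at 189.6, 169 and 168 CPM and 98.9, 109 and 135 CPM in Rv1-Luc. Under SNX631 it was at 119, 131 and 127 CPM and 75.1, 78.3 and 78.5 CPM in Rv1-WT, and 173, 96.2 and 228 CPM and 54, 47.9 and 41.5 CPM in Rv1-Luc. The CSS libraries were below the FBS libraries in every pair of groups, and the FBS libraries of Rv1-Luc under SNX631 differed among themselves by more than any others. The log2FC was -1.37 ± 0.17 (edgeR FDR = 2.1e-08) and -0.70 ± 0.16 (edgeR FDR = 0.000557) in Rv1-WT, and -0.62 ± 0.15 (edgeR FDR = 0.0033) and -1.79 ± 0.16 (edgeR FDR = 3.44e-10) in Rv1-Luc. The Rv1-Luc call under vehicle was lost without FBS replicate 1 (-0.57, edgeR FDR = 0.0215), CSS replicate 1 (-0.53, edgeR FDR = 0.0332) or CSS replicate 2 (-0.60, edgeR FDR = 0.0197). It was also lost in a fit of the 2 groups alone (-0.63, edgeR FDR = 0.0228), as was that under SNX631 (-1.79, edgeR FDR = 0.0779). The difference of the vehicle effect between the lines was 0.75 ± 0.22 (edgeR FDR = 0.0086), and it was lost without 9 of the 12 libraries, with an edgeR FDR of up to 0.0377.

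Part of the hypoxia response was lower beside NDRG1. Of 12 of them, which do not include NDRG1, 11 were tested, and in CSS under vehicle 6 were called lower in Rv1-WT (4.78% of all genes) and 3 in Rv1-Luc (0.81%), with 0 called higher in either by edgeR. In Rv1-WT 2 of the 11 had a positive log2FC, 1 of them at an edgeR FDR under 0.05. Their summed level under vehicle was 771 to 796 CPM in FBS and 595 to 628 CPM in CSS in Rv1-WT, and 749 to 841 CPM and 555 to 625 CPM in Rv1-Luc. Of 11 glucocorticoid response genes, 3 were higher (6.09% of all genes) and 2 lower (4.78%) with CSS in vehicle-treated Rv1-WT. Their sum there went from between 504 and 559 CPM to between 547 and 579 CPM. In Rv1-Luc 3 were lower (0.81%), and their sum went from between 440 and 481 CPM to between 318 and 346 CPM. The part of the hypoxia and glucocorticoid responses in the changes of NDRG1 and FKBP5 was not tested.

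The lines were compared directly by the difference of their CSS effects under vehicle. NDRG1 and ELL2 were the 2 members called, beside 8.65% of all genes in either direction. The plot of both effects has most other members near the diagonal or near 0.

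**Figure D3:**
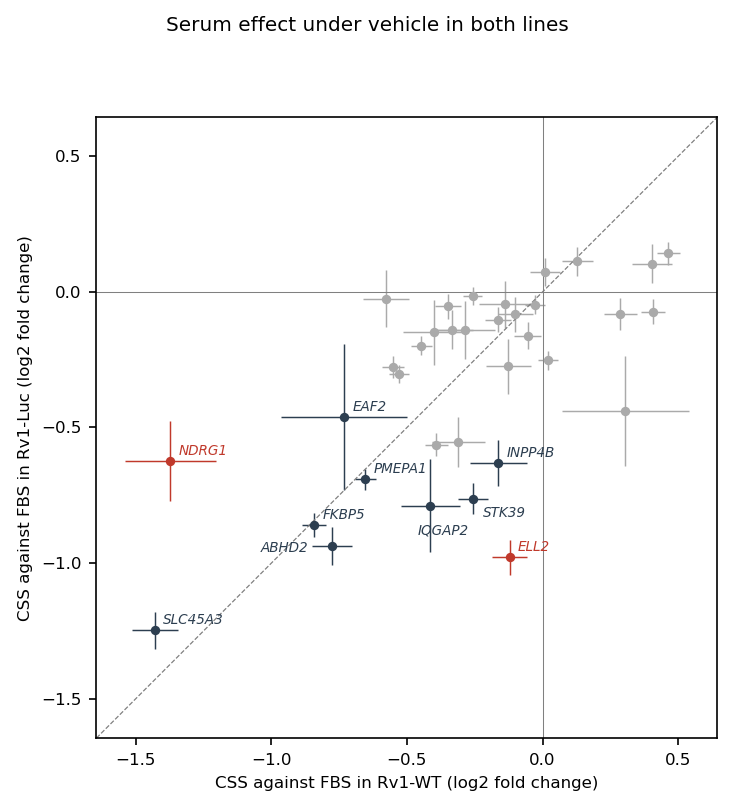
log2 fold change of CSS against FBS under vehicle in Rv1-WT (x axis) and Rv1-Luc (y axis) for the 35 members with a standard error of at most 0.3 in both, with bars of 1 standard error and a dashed line of equal effects. Named members were called in either line, and red marks NDRG1 and ELL2, the 2 whose difference between the lines was called.

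SNX631 changed the members in both directions. In the 6 settings with an active kinase, 14 members were called in at least 1, beside 9.88% of all genes, and NDRG1 was called in both directions. SLC45A3 was lower and ELL2 higher in all 6. In Rv1-WT in FBS 1 member was lower (0.645% of all genes) and 2 higher (1.75%), and in CSS 1 lower (1.25%) and 6 higher (2.97%), with a median log2FC of 0.09 and 0.21. In Rv1-Luc 2 members were lower (1.34%) and 4 higher (2.32%) in FBS, and 2 lower (1.61%) and 4 higher (2.45%) in CSS, with a median of 0.08 and 0.10. In dKO-8 1 was lower (1.05%) and 2 higher (0.655%), and in dKO-19 5 were lower (1.53%) and 2 higher (1.87%), with a median of 0.01 and -0.08.

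SLC45A3 was the member lowered by SNX631 in every line with an active kinase. The levels in Rv1-WT and Rv1-Luc are given above, and the log2FC was -1.33 ± 0.087 (edgeR FDR = 1.21e-18) in FBS and -0.96 ± 0.11 (edgeR FDR = 3.23e-10) in CSS in Rv1-WT, and -1.31 ± 0.069 (edgeR FDR = 3.99e-23) and -1.03 ± 0.082 (edgeR FDR = 1.29e-15) in Rv1-Luc. In both lines the libraries with both CSS and SNX631 were the lowest of the 12. The effects in CSS and FBS were not shown to differ, with a difference of 0.37 ± 0.14 (edgeR FDR = 0.172) in Rv1-WT and 0.28 ± 0.11 (edgeR FDR = 0.347) in Rv1-Luc, and those of the lines in FBS differed by 0.02 ± 0.11 (edgeR FDR = 0.968). In dKO-8 SLC45A3 went from 20.8, 22 and 20.9 CPM to 11.1, 11.8 and 10.4 CPM, and in dKO-19 from 34.2, 34.6 and 35.6 CPM to 8.57, 6.99 and 6.97 CPM. The treated libraries lay below the vehicle libraries in both, more so in dKO-19. The log2FC was -0.93 ± 0.089 (edgeR FDR = 2.45e-12) in dKO-8 and -2.21 ± 0.092 (edgeR FDR = 7.05e-28) in dKO-19, a difference of -1.28 ± 0.13 (edgeR FDR = 2e-10).

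ELL2 was the member raised by SNX631 in every line with an active kinase. In Rv1-WT it went from 258, 261 and 259 CPM to 403, 414 and 405 CPM in FBS and from 235, 250.1 and 229.9 CPM to 451, 449 and 456 CPM in CSS. Treated and vehicle libraries did not overlap there or in Rv1-Luc, whose levels are above. The log2FC was 0.65 ± 0.065 (edgeR FDR = 3.43e-10) and 0.92 ± 0.065 (edgeR FDR = 6.96e-15) in Rv1-WT, and 1.04 ± 0.064 (edgeR FDR = 1.12e-16) and 1.01 ± 0.066 (edgeR FDR = 8.58e-16) in Rv1-Luc. In dKO-8 ELL2 went from 354, 361 and 364 CPM to 545, 546 and 547 CPM, and in dKO-19 from 521, 528 and 528 CPM to 851, 826 and 824 CPM. The groups were again apart, with a log2FC of 0.60 ± 0.063 (edgeR FDR = 1.21e-09) and 0.66 ± 0.063 (edgeR FDR = 3.65e-11). ELL2 in Rv1-Luc in FBS missed the FDR limit in a fit of the 2 groups alone (1.03, edgeR FDR = 0.0116).

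FKBP5 was not called under SNX631. Its log2FC was 0.02 ± 0.043 (edgeR FDR = 0.858) for Rv1-WT in FBS and 0.44 ± 0.044 (edgeR FDR = 3.07e-12) in CSS, and 0.42 ± 0.043 (edgeR FDR = 1.12e-11) and 0.42 ± 0.045 (edgeR FDR = 3.49e-11) in Rv1-Luc. The 3 larger values are under the 1.5-fold limit, although in each of them all 3 treated libraries lay above the vehicle libraries. The difference between CSS and FBS was 0.43 ± 0.062 (edgeR FDR = 2.95e-06) in Rv1-WT, and in FBS the line difference, Rv1-Luc minus Rv1-WT, was 0.41 ± 0.061 (edgeR FDR = 1.01e-05), neither of which reached 1.5-fold.

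Several members rose with SNX631 in part of the settings. IQGAP2 in Rv1-WT went from 10.6, 10.6 and 10.7 CPM to 19.6, 18.5 and 19.6 CPM in FBS, and from 8.51, 8.49 and 7.1 CPM to 13.4, 12.7 and 14.9 CPM in CSS. Its level was higher with SNX631 in both media, without overlap, with a log2FC of 0.85 ± 0.094 (edgeR FDR = 2.31e-10) and 0.77 ± 0.1 (edgeR FDR = 1.19e-08). In Rv1-Luc in CSS IQGAP2 was at 1.72, 1.58 and 1.62 CPM under vehicle and 2.85, 3.38 and 4.15 CPM under SNX631, a log2FC of 1.07 ± 0.17 (edgeR FDR = 8.39e-07) with no overlap. TSC22D1 rose in Rv1-WT in CSS from 151, 155 and 155 CPM to 230.1, 250.4 and 245 CPM, with no overlap and a log2FC of 0.65 ± 0.043 (edgeR FDR = 1.07e-18). MAP7, a microtubule-binding protein, rose in Rv1-Luc in FBS from 195, 210 and 204 CPM to 309, 329 and 322 CPM, also with no overlap and a log2FC of 0.65 ± 0.041 (edgeR FDR = 6.45e-20).

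ARID5B, a DNA-binding coregulator, was at 68.9, 63.7 and 63.3 CPM under vehicle and 102, 94.2 and 99.8 CPM under SNX631 in Rv1-Luc in FBS, and at 62.6, 58.5 and 64.2 CPM and 102, 89 and 88.2 CPM in CSS. Both media had higher treated libraries, and the log2FC of 0.59 ± 0.057 (edgeR FDR = 2.05e-12) and 0.59 ± 0.058 (edgeR FDR = 4.14e-12) lie at the 1.5-fold limit. ARID5B fell short of the limit in FBS without vehicle replicate 2 (0.57) or 3 (0.57) or SNX631 replicate 1 (0.57) or 3 (0.58), and in CSS without vehicle replicate 2 (0.55) or treated replicate 1 (0.52), as well as with no filter on low counts (0.58). Further members called higher were GUCY1A1, a subunit of soluble guanylate cyclase, in Rv1-WT in CSS with a log2FC of 0.78, and AZGP1, the secreted zinc-alpha-2-glycoprotein, in Rv1-Luc in FBS with a log2FC of 0.67. AZGP1 there fell short without vehicle replicate 2 (0.52) or SNX631 replicate 3 (0.57).

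The members called at low levels are the least certain. MAF, a leucine zipper transcription factor, was at 0.222, 0.248 and 0.674 CPM under vehicle and 1.33, 1.01 and 1.52 CPM under SNX631 in Rv1-WT in CSS. Its libraries did not overlap, but the log2FC of 1.70 ± 0.49 (edgeR FDR = 0.00618) was lost without 4 of the 6 libraries, with an edgeR FDR of up to 0.0508. MAK, a kinase first found in male germ cells, was at 1.09, 0.992 and 0.924 CPM and 1.52, 1.81 and 1.82 CPM in Rv1-Luc in CSS. The treated libraries were higher, and the log2FC of 0.77 ± 0.22 (edgeR FDR = 0.00727) was lost without 5 of the 6 libraries, with an edgeR FDR of up to 0.0325, and with DESeq2 (adjusted p = 0.0171).

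HPGD and NDRG1 fell with SNX631 in part of the settings. HPGD in Rv1-Luc in FBS went from 316, 363 and 354 CPM to 222, 211 and 217 CPM, and in dKO-19 from 382, 393 and 376 CPM to 234, 238 and 232 CPM. All treated libraries were below the vehicle libraries, with a log2FC of -0.67 ± 0.042 (edgeR FDR = 9.31e-20) and -0.71 ± 0.042 (edgeR FDR = 1.06e-20). In Rv1-WT in FBS the HPGD groups were also apart, at 309, 312 and 315 CPM and 209.9, 227 and 216 CPM, with a log2FC of -0.52 ± 0.043 (edgeR FDR = 1.36e-14) that is under the limit.

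NDRG1 was lower with SNX631 in Rv1-Luc in CSS, with a log2FC of -1.25 ± 0.16 (edgeR FDR = 2.58e-07), and in dKO-19, where it went from 238, 256 and 219 CPM to 94.7, 93.3 and 94.1 CPM, a log2FC of -1.34 ± 0.15 (edgeR FDR = 1.7e-08). In Rv1-WT in CSS it was higher with SNX631, with a log2FC of 0.66 ± 0.17 (edgeR FDR = 0.00361). In each of the 3 settings the libraries of the 2 groups were apart. The Rv1-WT call was lost without vehicle replicate 1 (0.59, edgeR FDR = 0.0265) or 3 (0.67, edgeR FDR = 0.0132) or SNX631 replicate 2 (0.65, edgeR FDR = 0.0131) or 3 (0.65, edgeR FDR = 0.0128). In Rv1-Luc the effect in CSS differed from that in FBS by -1.17 ± 0.22 (edgeR FDR = 0.0049), the 1 member among the 0.08% of all genes called for that difference. The FBS libraries under SNX631 have the wide spread noted above, and the call was lost without 7 of the 12 libraries, with an edgeR FDR of up to 0.0347, and in a fit of the 4 groups alone (-1.16, edgeR FDR = 0.622). Summed hypoxia genes in Rv1-Luc in CSS were at 555 to 625 CPM under vehicle and 419 to 454 CPM under SNX631, and in dKO-19 at 732 to 784 CPM and 575 to 593 CPM. In Rv1-WT in CSS, where NDRG1 was higher, they were at 595 to 628 CPM and 570 to 588 CPM, although 7 of the 11 had a positive log2FC, with a median of 0.01, and the 1 called was higher, beside 2.97% of all genes. Where NDRG1 was not called, the hypoxia sums under vehicle and SNX631 were 771 to 796 CPM and 635 to 712 CPM in Rv1-WT in FBS. In Rv1-Luc in FBS they were 749 to 841 CPM and 547 to 823 CPM. In dKO-8 they were 679 to 706 CPM and 626 to 637 CPM. The part of the hypoxia response in the NDRG1 changes was not tested.

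For the difference of the SNX631 effect between CSS and FBS in Rv1-WT, edgeR called 0 members beside 0.295% of all genes, with 18 members (14.6% of all genes) at an unadjusted p under 0.05 and 0 called by DESeq2. For the line difference in FBS it called 0 members beside 0.175% of all genes, with 11 (11.9%) at an unadjusted p under 0.05 and 0 called by DESeq2.

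In the kinase-dead lines no member was called with SNX631. In dKO-8M 0 of the 39 were called lower, beside 0.015% of all genes, and 0 higher, beside 0%, and in dKO-19M 0 were lower, beside 0.06%, and 0 higher, beside 0.03%. An unadjusted edgeR p was under 0.05 for 5 members of dKO-8M, beside 9.55% of all genes, and 12 of dKO-19M, beside 14.7%, with 0 called by DESeq2 in both. The median log2FC of the members was -0.03 and 0.02, respectively, and the latter ran from -0.038 to 0.064 when 1 library was left out, changing sign. The difference of the effect between the active and the dead form was called for 4 members with CDK8, where 0.905% of all genes were, and for 7 with CDK19, where 2.07% were. Without dKO-19M vehicle replicate 1, the library that stood apart, 5 members were called for the CDK19 difference and 0 for SNX631 in dKO-19M.

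SLC45A3 was in both sets. In dKO-8M it was at 27.3, 29.9 and 25.9 CPM under vehicle and 24.7, 23.9 and 23.6 CPM under SNX631, and in dKO-19M at 24.9, 23.4 and 23.6 CPM and 17.1, 17.9 and 18.8 CPM. The treated libraries were lower in both dead lines, without overlap, by far less than in the active lines. The log2FC was -0.20 ± 0.077 (edgeR FDR = 0.295) in dKO-8M and -0.42 ± 0.081 (edgeR FDR = 0.00133) in dKO-19M, neither past both limits, and the log2FC with the active form minus that with the dead was -0.73 ± 0.12 (edgeR FDR = 1.49e-05) for CDK8 and -1.80 ± 0.12 (edgeR FDR = 3.96e-17) for CDK19.

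AZGP1 was in both sets too. It went from 3.36, 3.97 and 4.79 CPM to 5.55, 6.31 and 6.88 CPM in dKO-8 and from 4.18, 3.85 and 4.17 CPM to 3.16, 4.03 and 3.58 CPM in dKO-8M. In the CDK19 pair it went from 3.58, 3.29 and 4.06 CPM to 6.8, 6.35 and 6.46 CPM in dKO-19 and from 11.9, 10.3 and 10.3 CPM to 8.78, 10.02 and 10.5 CPM in dKO-19M. The treated libraries were above the vehicle libraries in the active lines, and overlapped with them in both dead lines. The log2FC was 0.61 ± 0.13 (edgeR FDR = 0.000619) in dKO-8 and 0.83 ± 0.14 (edgeR FDR = 2.89e-06) in dKO-19, and the difference from the dead form was 0.78 ± 0.2 (edgeR FDR = 0.00676) for CDK8 and 0.98 ± 0.17 (edgeR FDR = 2.62e-05) for CDK19. The dKO-8 call was lost without vehicle replicate 1 (0.49, edgeR FDR = 0.0175) or SNX631 replicate 3 (0.53), and the difference for CDK8 without 8 of the 12 libraries, with an edgeR FDR of up to 0.0396.

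**Figure D4:**
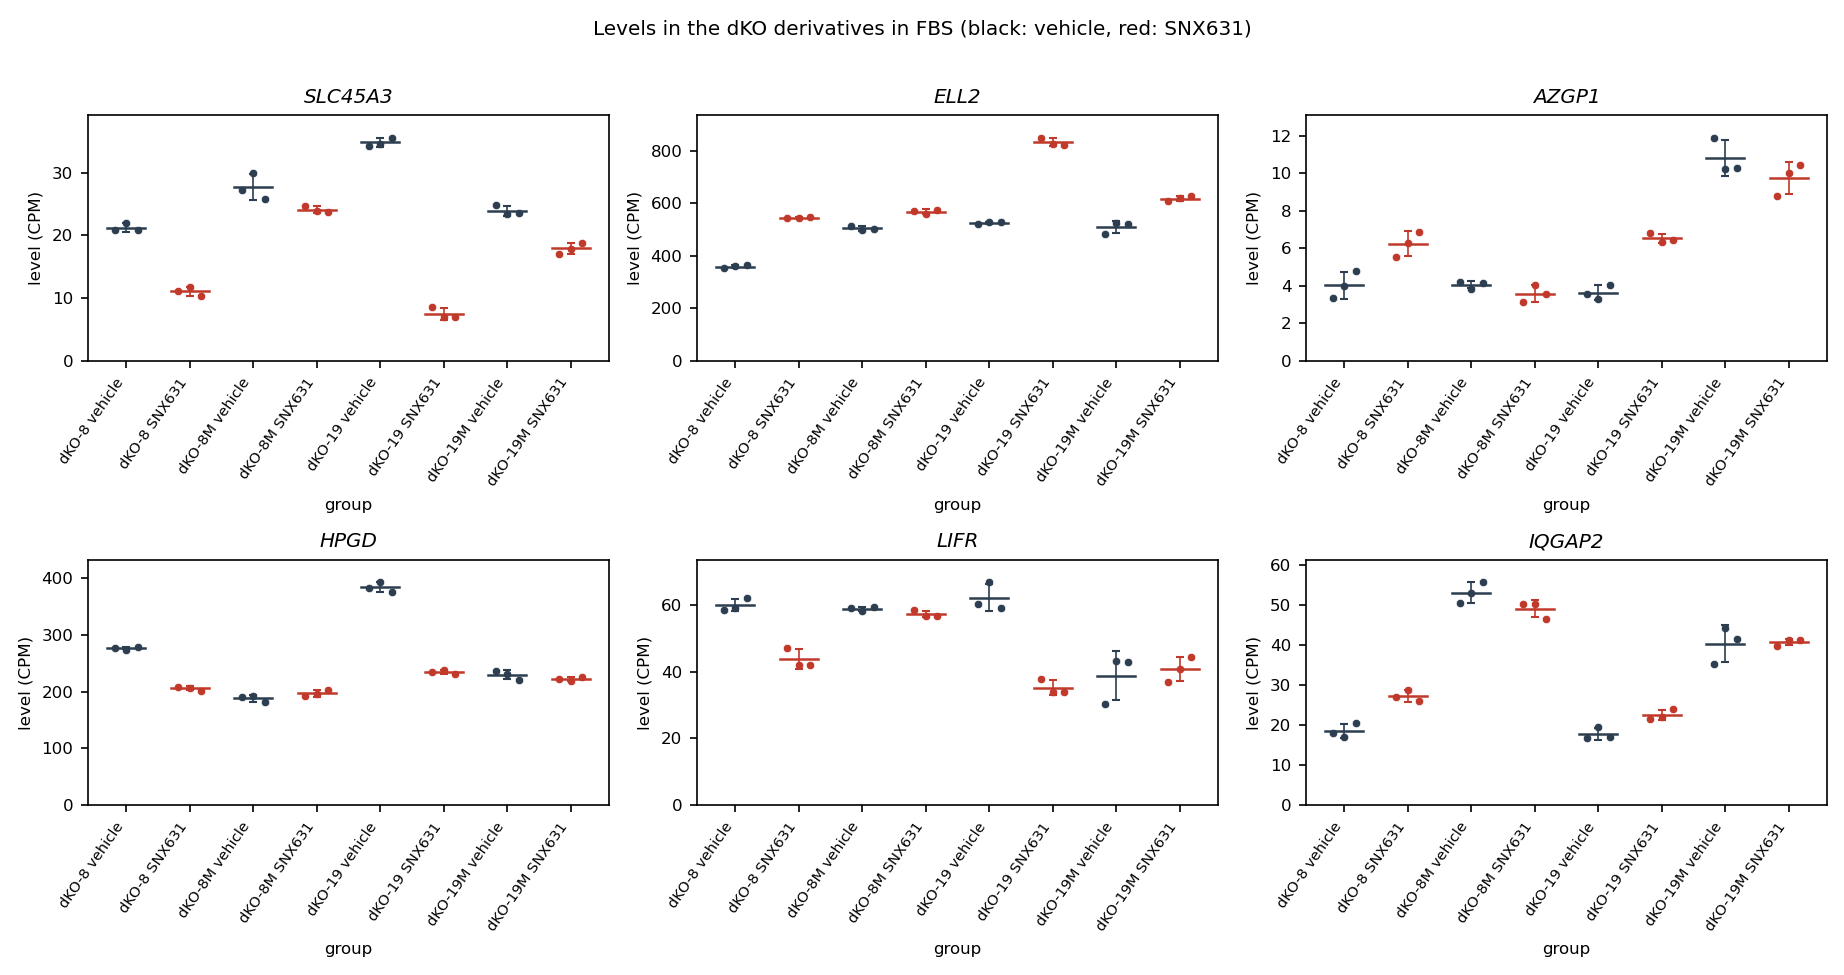
Levels in CPM (y axes, from 0) of SLC45A3, ELL2, AZGP1, HPGD, LIFR and IQGAP2 in the 8 groups of the dKO lines in FBS (x axes), black for vehicle and red for SNX631. Points are the 3 libraries, horizontal lines the mean and bars the SD, and SLC45A3 falls in dKO-19 from between 34.2 and 35.6 CPM to between 6.97 and 8.57 CPM.

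In the CDK8 pair the other 2 were IQGAP2 and MAK. IQGAP2 went from 17.9, 17.1 and 20.6 CPM to 27, 28.9 and 26.1 CPM in dKO-8 and from 50.5, 53 and 55.8 CPM to 50.3, 50.2 and 46.6 CPM in dKO-8M. The treated libraries were higher in dKO-8 and lower in dKO-8M, and the difference was 0.66 ± 0.098 (edgeR FDR = 2.47e-06), although neither effect was called by itself. MAK went from 2.06, 2.35 and 2.51 CPM to 1.56, 1.62 and 1.27 CPM in dKO-8 and from 1.41, 1.9 and 1.34 CPM to 2.06, 2.45 and 1.89 CPM in dKO-8M. It was lower with SNX631 in dKO-8 without overlap, while the dKO-8M libraries did not separate fully. The difference of -1.10 ± 0.28 (edgeR FDR = 0.00654) was lost without 8 of the 12 libraries, with an edgeR FDR of up to 0.0373.

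In the CDK19 pair the other 5 were ABHD2, LIFR, HPGD, ACSL3 and ABCC4, each with a lower log2FC in dKO-19 than in dKO-19M. ABHD2 went from 93.6, 97.2 and 95.9 CPM to 55.1, 56.4 and 54.7 CPM in dKO-19 and from 82.4, 113 and 111 CPM to 91.3, 104 and 101 CPM in dKO-19M. LIFR, the receptor for leukemia inhibitory factor, went from 60.4, 66.8 and 59.2 CPM to 37.8, 33.8 and 34 CPM and from 30.4, 43.1 and 43 CPM to 37, 40.9 and 44.3 CPM. Both genes were lower with SNX631 in every dKO-19 library, and their dKO-19M groups overlapped, with vehicle replicate 1 the lowest library. The difference was -0.74 ± 0.11 (edgeR FDR = 3.41e-06) for ABHD2 and -0.89 ± 0.12 (edgeR FDR = 8.4e-07) for LIFR, and the log2FC in dKO-19 -0.79 ± 0.078 (edgeR FDR = 2.04e-10) and -0.82 ± 0.087 (edgeR FDR = 5.2e-10). HPGD in dKO-19M was at 236, 231 and 221 CPM under vehicle and 222, 219 and 226 CPM under SNX631, which overlap, and its effect differed from that in dKO-19 by -0.66 ± 0.06 (edgeR FDR = 5.62e-13).

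ACSL3 went from 172, 183 and 176 CPM to 127, 122 and 131 CPM in dKO-19 and from 97.7, 112 and 106 CPM to 119, 111 and 117 CPM in dKO-19M. It was lower without overlap in dKO-19, with a log2FC of -0.49 that is under the limit, and the dKO-19M groups overlapped. The difference of -0.63 ± 0.059 (edgeR FDR = 1.68e-12) fell short without dKO-19M vehicle replicate 1 (-0.58), and with scaling by library size alone (-0.57). ABCC4, an exporter of cyclic nucleotides, went from 10.3, 9.09 and 10.2 CPM to 6.94, 8.71 and 7.33 CPM in dKO-19 and from 5.23, 5.53 and 5.28 CPM to 6.71, 6.32 and 5.99 CPM in dKO-19M. It was lower with SNX631 in dKO-19 and higher in dKO-19M, both without overlap, and the effects differed by -0.60 ± 0.16 (edgeR FDR = 0.00914), which was lost without 10 of the 12 libraries, with an edgeR FDR of up to 0.037, and with DESeq2 (adjusted p = 0.0106).

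ELL2 was called in dKO-8 and dKO-19 but its difference from the dead form was not. It went from 513, 498 and 502 CPM to 569, 558 and 576 CPM in dKO-8M and from 483, 523 and 519.9 CPM to 608, 621 and 626 CPM in dKO-19M. The treated libraries were higher in the dead lines as well, with a log2FC of 0.17 ± 0.063 (edgeR FDR = 0.286) and 0.28 ± 0.063 (edgeR FDR = 0.00713). The log2FC with the active form minus that with the dead was 0.43 ± 0.089 (edgeR FDR = 0.00104) for CDK8 and 0.38 ± 0.088 (edgeR FDR = 0.00256) for CDK19, past the FDR limit and under 1.5-fold. Between the active kinases, the difference of the SNX631 effect was called for 2 members, SLC45A3 and NDRG1, beside 0.885% of all genes. For NDRG1, which went from 213, 208 and 201 CPM to 169, 166 and 172 CPM in dKO-8, the difference was -1.04 ± 0.21 (edgeR FDR = 0.00145). dKO-8 and dKO-19 also differ in the level of the kinase put back and in the empty vector. Which kinase, its level and the vector cannot be told apart here.

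**Figure D5:**
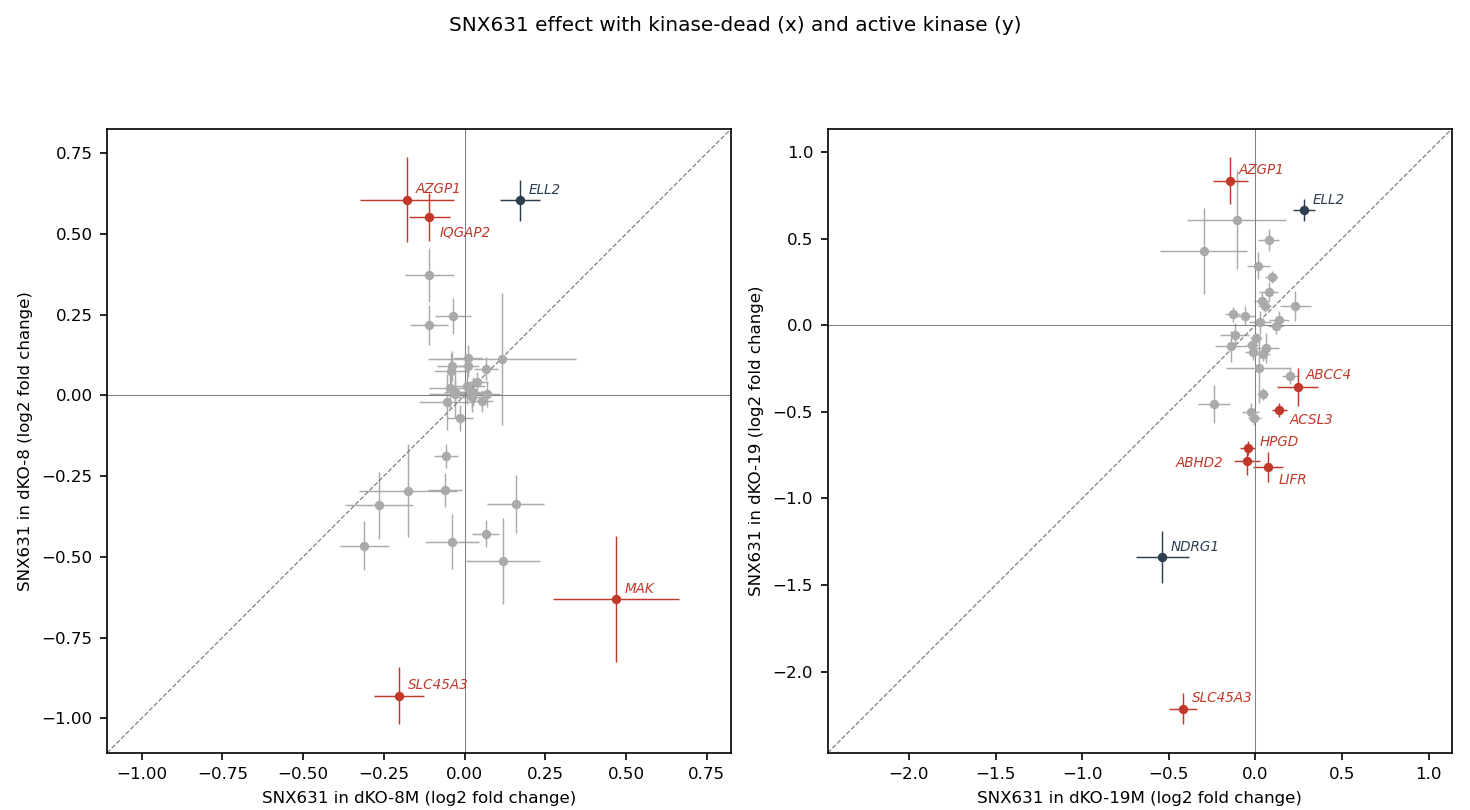
log2 fold change of SNX631 against vehicle with the kinase-dead form (x axes) and the active form (y axes) for CDK8 (left, 35 members) and CDK19 (right, 36 members), for members with a standard error of at most 0.3, with bars of 1 standard error. The dashed line marks equal effects and red marks members whose difference between the forms was called. SLC45A3 is the lowest in both panels, at -0.93 and -2.21.

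Under vehicle 4 members were called between the dead and active forms of CDK8 and 12 between those of CDK19. IQGAP2, INPP4B and NDRG1 were called in both pairs in the same direction. Against dKO-8, dKO-8M had 2 members lower (4.07% of all genes) and 2 higher (2.95%), with a median log2FC of -0.05. Against dKO-19, dKO-19M had 8 lower (3.87%) and 4 higher (3.72%), also with a median of -0.05, and 9 were called without dKO-19M vehicle replicate 1. The lines of a pair differ in the level of the kinase put back as well as in its form, and these cannot be told apart.

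IQGAP2 under vehicle, at the levels given above, was higher in both dead lines without overlap, with a log2FC of 1.50 ± 0.071 (edgeR FDR = 1.26e-25) and 1.19 ± 0.072 (edgeR FDR = 9.09e-21). INPP4B was at 26.4, 23.9 and 26.6 CPM in dKO-8 and 55.2, 54.9 and 51.3 CPM in dKO-8M, and at 29, 32.4 and 31.4 CPM and 45.4, 59.2 and 59.4 CPM in the CDK19 pair. It was higher in the dead form in every library, with a log2FC of 1.07 ± 0.08 (edgeR FDR = 4.78e-16) and 0.82 ± 0.078 (edgeR FDR = 1.39e-12). NDRG1 was at 125, 123 and 121 CPM in dKO-8M and 109, 113 and 119 CPM in dKO-19M. These libraries lay below those of the active lines, with a log2FC of -0.76 ± 0.15 (edgeR FDR = 0.000121) and -1.06 ± 0.15 (edgeR FDR = 4.69e-07). FKBP5 was at 737, 775 and 761 CPM in dKO-8 and 479, 473 and 463 CPM in dKO-8M, lower without overlap by a log2FC of -0.68 ± 0.043 (edgeR FDR = 4.69e-20). In the CDK19 pair it was at 550.1, 556 and 525 CPM and 471, 521 and 515 CPM, a log2FC of -0.11 that was not called.

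PLPP1, a lipid phosphatase of the cell surface, was at 58.7, 56.5 and 60.3 CPM in dKO-19 and 21, 18.7 and 18.4 CPM in dKO-19M. The groups are far apart, with a log2FC of -1.60 ± 0.073 (edgeR FDR = 2.75e-26), while in the CDK8 pair PLPP1 was at 31.3, 30.7 and 31.1 CPM and 25.4, 25.2 and 25 CPM, a log2FC of -0.30. ACSL3 and HPGD, at the levels given above, were below dKO-19 in every dKO-19M library, with a log2FC of -0.75 ± 0.041 (edgeR FDR = 6.42e-23) and -0.74 ± 0.042 (edgeR FDR = 4.38e-22). The other members called in the CDK19 pair were AZGP1 (1.56) and GUCY1A1 (0.60), which were higher in dKO-19M, and ABCC4 (-0.88), LIFR (-0.68), ZBTB10 (-0.63), a zinc finger protein, and MAP7 (-0.61), which were lower. MAP7, ZBTB10 and LIFR fell under 1.5-fold without dKO-19M vehicle replicate 1, the library that stood apart, with -0.55, -0.53 and -0.53. MAP7 also did so without dKO-19 vehicle replicate 1 (-0.58), and GUCY1A1 without dKO-19 vehicle replicate 2 (0.57) or 3 (0.54) or dKO-19M vehicle replicate 2 (0.51).

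Before any treatment effect, Rv1-Luc and Rv1-WT differed in 11 members in FBS under vehicle, 7 of them lower in Rv1-Luc (9.16% of all genes) and 4 higher (8.63%), with a median log2FC of -0.21. The libraries of the 2 lines also differed in depth without overlap, so line and depth cannot be told apart here. Of 9 blood and plasma cell markers 6 passed the filter on low counts, which counts in Rv1-Luc alone can meet. The 9 are therefore described by level only. Their summed level under vehicle in FBS was 0.603 to 1.43 CPM in Rv1-WT, where 5 of the 9 were at 0 in every library, and 10.4 to 22.3 CPM in Rv1-Luc, where it was 3.94 to 4.96 CPM in CSS, and 2.74 to 9.64 CPM in FBS and 5.55 to 16.7 CPM in CSS under SNX631. Immunoglobulin genes IGHG1 and IGKC were among those at 0 in Rv1-WT in FBS under vehicle. The part of these transcripts in the values of Rv1-Luc was not tested. AZGP1 was at 37.5, 34.4 and 36.4 CPM in Rv1-WT and 9.23, 7.08 and 10.8 CPM in Rv1-Luc, the lower without overlap, a log2FC of -2.003 ± 0.093 (edgeR FDR = 1.75e-26). SORD was at 113, 111 and 116 CPM and 198, 195 and 191 CPM, the higher in Rv1-Luc, a log2FC of 0.78 ± 0.036 (edgeR FDR = 3.13e-26). FKBP5 and PMEPA1, at the levels given above, differed in opposite directions, with a log2FC of -0.92 ± 0.044 (edgeR FDR = 6.64e-26) and 0.65 ± 0.039 (edgeR FDR = 1.21e-21). Also called were SLC45A3 (0.94) and INPP4B (0.82), higher in Rv1-Luc, and IQGAP2 (-1.90), BMPR1B (-1.31), a receptor of bone morphogenetic proteins, GUCY1A1 (-0.90), EAF2 (-1.28) and ALDH1A3 (-2.37), which makes retinoic acid, lower. ALDH1A3 was at 0.588, 1.61 and 0.779 CPM in Rv1-WT and 0.162, 0.252 and 0.136 CPM in Rv1-Luc, and its other values in the map, like those of STEAP4, come from levels this low and were not called.

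FKBP5 and SLC45A3 ordered the 16 groups differently. FKBP5 was lowest in Rv1-Luc in CSS under vehicle, at 185, 171 and 176 CPM, and highest in dKO-8, where 737, 775 and 761 CPM under vehicle and 762, 754 and 766 CPM under SNX631 overlap. It was at 487, 476 and 475 CPM in dKO-8M, 605, 602 and 591 CPM in dKO-19 and 516, 521 and 508 CPM in dKO-19M under SNX631. SLC45A3 was highest in Rv1-Luc in FBS under vehicle and lowest in Rv1-WT in CSS and in dKO-19, both under SNX631, whose libraries overlap. In none of the 4 dKO lines was FKBP5 called under SNX631.

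The 13 members called in no comparison were STEAP4, CAMKK2, HERC3, ANKH, CENPN, GPD1L, HOMER2, NCOA4, PDLIM5, TPD52, UAP1, ZMIZ1 and SGK1. CAMKK2, the kinase that activates AMPK, had a log2FC between -0.26 and 0.04 in the 4 CSS comparisons and between -0.14 and 0.09 in the 6 active SNX631 comparisons. NCOA4, a nuclear receptor coactivator and ferritin receptor, had one between -0.05 and -0.01 and between 0.07 and 0.14. PDLIM5, a cytoskeletal adaptor, was between 0.20 and 0.49 in the 6, and CENPN, a centromere protein, between -0.53 and -0.23 in the 4. STEAP4, a metalloreductase, was at 0.412, 1.34 and 0.973 CPM in Rv1-WT in FBS under vehicle and at 0 in every library of dKO-8 under SNX631, and SGK1, a kinase of the steroid and serum response, never passed 2.55 CPM. The counts of HERC3 and TPD52 were fractional in 81.2% and 83.3% of libraries, those of CENPN in 58.3%, NDRG1 in 47.9%, GUCY1A1 in 39.6% and PLPP1 in 33.3%, which leaves the levels of these genes uncertain where reads are shared with another feature.

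For reference, 60 other androgen response genes were followed. With vehicle, CSS against FBS gave 2 higher (6.09% of all genes) and 11 lower (4.78%) in Rv1-WT, and 0 higher (0.68%) and 2 lower (0.81%) in Rv1-Luc. Under SNX631 2 were higher (4.86%) and 6 lower (2.97%) in Rv1-WT and 0 higher (0.595%) and 3 lower (0.92%) in Rv1-Luc. ELOVL5, which elongates fatty acids, had a log2FC of -0.81 ± 0.038 (edgeR FDR = 4.99e-26) in Rv1-WT and -0.32 ± 0.038 (edgeR FDR = 4.75e-09) in Rv1-Luc. DBI, which binds acyl-CoA, was lower in Rv1-WT with a log2FC of -1.13, and RRP12, of ribosome assembly, and SLC38A2, an amino acid transporter, were higher by 0.69 and 0.60.

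With SNX631 the same 60 genes had 2 higher (1.75% of all genes) and 4 lower (0.645%) for Rv1-WT in FBS, and 3 higher (2.97%) and 2 lower (1.25%) in CSS. For Rv1-Luc it was 4 higher (2.32%) and 3 lower (1.34%) in FBS and 3 higher (2.45%) and 4 lower (1.61%) in CSS. In dKO-8 it was 1 higher (0.655%) and 2 lower (1.05%), in dKO-19 1 higher (1.87%) and 5 lower (1.53%), and with the dead kinases 0 and 0 by edgeR. Among the genes left out of the set, TMPRSS2 rose by 1.36 and 1.77 with SNX631 in Rv1-WT and Rv1-Luc in FBS, KLK3 had a log2FC of -1.26 and 0.23, the second of which was not called, and KLK2 one of -0.80 and -0.13, again with the second not called. Of the 5 kallikrein and TMPRSS2 genes followed, 2 were called higher (1.75%) and 2 lower (0.645%) in Rv1-WT in FBS. In Rv1-Luc in FBS 3 were called higher (2.32%), and 1 had a negative log2FC. In CSS 3 were called higher in Rv1-WT (2.97%), with 2 negative. In Rv1-Luc in CSS 4 were called higher (2.45%), and all 5 were positive.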

How the data were processed

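Strand-specific RNA libraries of 48 cultures were sequenced and the deposited table holds estimated counts per gene made by the authors, with fractional values where reads are shared (81.6% of nonzero values were whole). The submitters' processing notes list FastQC, cutadapt 2.8, STAR 2.7.2b, featureCounts and Subread 2.0.3, and the builds GRCh38.p13 and GRCm39, without giving their roles. Values were rounded, the 2 transgene entries (0.0169% of counts) were left out of 61817 entries, and 20009 genes passed edgeR's filterByExpr (minimum count 10, minimum total 15).

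Counts were scaled by TMM (factors 0.911 to 1.07) and fitted in edgeR 4.0.16 (limma 3.58.1, R 4.3.3) with a mean for each of 16 groups and 32 residual degrees of freedom. The quasi-likelihood F-test was two-sided, with Benjamini-Hochberg adjustment over all genes, and genes were called at an FDR under 0.01 and a fold change over 1.5. Interaction terms tested differences between effects. Alternatives were DESeq2 1.42.0, RLE or library size scaling, no filter, only the groups compared, the replicate number as a block, an FDR of 0.05 and each library left out. Scripts were tested on simulated data.

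The members and gene lists were chosen with earlier results of these data known. Up to 4 called members of lowest FDR per comparison are given by library, with FKBP5 and SLC45A3 for all groups, and up to 6 other androgen response genes of lowest FDR in CSS. HERC3 has 2 entries, of which 1 was used. Groups followed the labels and replicates are stated to be biological. Totals of 13.2 to 31.5 M counts set the precision.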

Additional observations from a re-analysis of the deposited data

Results flagged for a closer look

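The members below are listed because a difference of effects between 2 lines, media or kinases was called by the edgeR interaction term. Each value is a difference of log2 fold changes with its standard error. The CSS effect under vehicle, Rv1-Luc minus Rv1-WT, was 0.748 ± 0.22 (edgeR FDR = 0.0086) for NDRG1 and -0.856 ± 0.093 (edgeR FDR = 7.97e-10) for ELL2. The SNX631 effect in Rv1-Luc, CSS minus FBS, was -1.166 ± 0.22 (edgeR FDR = 0.0049) for NDRG1. The SNX631 effect with active minus kinase-dead CDK8 was -0.728 ± 0.12 (edgeR FDR = 1.49e-05) for SLC45A3, 0.784 ± 0.2 (edgeR FDR = 0.00676) for AZGP1, 0.661 ± 0.098 (edgeR FDR = 2.47e-06) for IQGAP2 and -1.101 ± 0.28 (edgeR FDR = 0.00654) for MAK. With active minus kinase-dead CDK19 it was -1.796 ± 0.12 (edgeR FDR = 3.96e-17) for SLC45A3, -0.627 ± 0.059 (edgeR FDR = 1.68e-12) for ACSL3, -0.602 ± 0.16 (edgeR FDR = 0.00914) for ABCC4, -0.736 ± 0.11 (edgeR FDR = 3.41e-06) for ABHD2, 0.979 ± 0.17 (edgeR FDR = 2.62e-05) for AZGP1, -0.663 ± 0.06 (edgeR FDR = 5.62e-13) for HPGD and -0.893 ± 0.12 (edgeR FDR = 8.4e-07) for LIFR. Between the active kinases, dKO-19 minus dKO-8, it was -1.283 ± 0.13 (edgeR FDR = 2e-10) for SLC45A3 and -1.043 ± 0.21 (edgeR FDR = 0.00145) for NDRG1. The calls of NDRG1 in both differences of Rv1-Luc, AZGP1 and MAK with CDK8 and ABCC4 with CDK19 were each lost without 7 or more of 12 libraries, with an edgeR FDR of at most 0.0396 in those fits. In a fit of its groups alone, NDRG1 for CSS minus FBS had an edgeR FDR of 0.622. NDRG1 for the CSS effect was also lost with library size scaling or a replicate block, and MAK with no filter on low counts. ABCC4 was also lost with RLE or library size scaling, its groups alone and DESeq2. ACSL3 fell short without dKO-19M vehicle replicate 1 and with library size scaling.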

How the results depend on the processing

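Of 101 calls of single members, 76 held under every alternative and 25 were lost under at least 1, 21 of them when 1 library was left out, and 0 turned direction. For MAF in Rv1-WT in CSS and MAK in the dKO-8 difference DESeq2 gave no adjusted p. At an FDR under 0.05 with no fold limit, 25, 21, 17 and 20 members were called for CSS in Rv1-WT under vehicle and SNX631 and in Rv1-Luc under vehicle and SNX631, 20, 25, 24, 22, 17, 1, 23 and 3 for SNX631 in Rv1-WT in FBS and CSS, Rv1-Luc in FBS and CSS, dKO-8, dKO-8M, dKO-19 and dKO-19M, 21 and 25 for dKO-8M against dKO-8 and dKO-19M against dKO-19, and 30 for Rv1-Luc against Rv1-WT. In the same order 44.9%, 40.6%, 14%, 12.7%, 14.5%, 26.5%, 20.3%, 23.9%, 13.5%, 0.485%, 20.6%, 2.41%, 30.5%, 33.3% and 52.5% of all genes passed it. The differences then gave 16, 9, 3, 4, 13, 18 and 10 members, in the order of line in CSS, medium in Rv1-WT, medium in Rv1-Luc, line in FBS, CDK8 form, CDK19 form and kinase, beside 34.1%, 3.13%, 0.51%, 1.48%, 6.2%, 9.87% and 4.77% of all genes. With only the groups compared, the calls were 4 for CSS in Rv1-Luc under SNX631, 1 for medium in Rv1-WT and 0 for medium in Rv1-Luc, and the Rv1-Luc against Rv1-WT median was -0.185. With library size alone the medians were -0.227 and -0.068 for CSS in Rv1-WT under vehicle and SNX631, -0.024 for SNX631 in dKO-19, 0 for dKO-19M against dKO-19 and -0.178 for Rv1-Luc against Rv1-WT, and the CSS difference between lines had 1 call. With no filter on low counts, medium in Rv1-WT had 1 call and the Rv1-Luc against Rv1-WT median was -0.188. The cause of these changes was not tested. With the replicate number as a block, the CSS difference between lines had 1 call, NDRG1 being lost (0.747, edgeR FDR = 0.0107), and no other call changed. Replicate numbers were not treated as pairs. Every same-numbered correlation of deviations passed 0.1 in 1 of 15 comparisons (range -0.196 to 0.461), SNX631 in dKO-19M (0.461, 0.289 and 0.189). With 3 libraries a group this cannot exclude pairing. Leaving out 1 library at a time moved the median log2 fold change over -0.323 to -0.229 for CSS against FBS in Rv1-WT under vehicle, -0.123 to -0.041 for CSS against FBS in Rv1-WT under SNX631, -0.283 to -0.224 for CSS against FBS in Rv1-Luc under vehicle, -0.182 to -0.156 for CSS against FBS in Rv1-Luc under SNX631, 0.056 to 0.132 for SNX631 against vehicle in Rv1-WT in FBS, 0.191 to 0.226 for SNX631 against vehicle in Rv1-WT in CSS, 0.045 to 0.137 for SNX631 against vehicle in Rv1-Luc in FBS, 0.065 to 0.109 for SNX631 against vehicle in Rv1-Luc in CSS, -0.117 to -0.075 for SNX631 against vehicle in dKO-19, -0.038 to 0.064 for SNX631 against vehicle in dKO-19M, -0.109 to -0.044 for dKO-8M against dKO-8 under vehicle, -0.091 to -0.026 for dKO-19M against dKO-19 under vehicle and -0.237 to -0.144 for Rv1-Luc against Rv1-WT in FBS under vehicle. It moved the calls over 1 to 3 for the difference of the CSS effect, Rv1-Luc minus Rv1-WT, under vehicle, 0 to 1 for the difference of the SNX631 effect, CSS minus FBS, in Rv1-Luc, 0 to 1 for the difference of the SNX631 effect, Rv1-Luc minus Rv1-WT, in FBS and 2 to 4 for the difference of the SNX631 effect, dKO-8 minus dKO-8M. Adding both HERC3 entries together, chosen after seeing the data, called nothing. Members of low count, such as MAF, MAK, EAF2, ALDH1A3, STEAP4 and SGK1, have the least precise values, and 3 libraries a group limit the rest.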
